A study of Mus musculus with 4 samples.

Results

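Hox genes encode homeodomain transcription factors and lie in 4 clusters, HoxA to HoxD. The members described here are all rows of the deposited expression table whose symbol is Hox, a cluster letter and a paralog number, 39 of 23970 symbols. Of these, 19 had a mean of at least 1 FPKM (sequenced fragments scaled to transcript length and to library size), out of 11350 such genes in the table.

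Within a cluster the genes are numbered in paralog groups, from group 1 at the 3′ end to group 13 at the 5′ end, and during development genes nearer the 3′ end are active earlier and further forward along the body. The combination that a cell keeps in later life records where in the body it came from, in dermal fibroblasts as well as in skin epithelium. Polycomb and Trithorax complexes maintain the silent and the active state, retinoic acid and Cdx factors act on the clusters in the embryo, and proteins of the TALE homeodomain class (Pbx, Meis and relatives) bind DNA together with Hox proteins.

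Libraries came from keratinocytes of newborn mice at passage 0, with 2 from control and 2 from Ovol2-deficient cells. All were grown in low-calcium medium on J2-3T3 cells, a mouse fibroblast feeder line treated so that it cannot divide, and harvested below confluence after the feeders were taken off. The labels name neither the allele or driver of the Ovol2 deficiency nor the body region of the skin, and give no treatment. They do not say whether the libraries of a group came from separate animals, so p-values measure only the spread between these libraries.

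Ovol2, the transcription factor gene named in the genotype, was at 2.68 and 2.14 FPKM in control cells, against 1.45 and 0.941 in deficient cells. The groups did not overlap, and the log2 fold change of -0.64 (SE 0.18) had a limma adjusted p of 0.129. All 10 keratinocyte markers were present, with the basal keratin Krt5 between 2269 and 2960 FPKM. Library totals are not given, so depth is unknown. In bulk RNA, fewer cells of a type and less RNA per cell cannot be told apart.

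None of the 19 expressed Hox genes passed the test between deficient and control keratinocytes (limma on log2(FPKM + 1), adjusted p under 0.05), where 1.35% of all tested genes did, 0.837% higher and 0.511% lower. The lowest adjusted p of a Hox gene was 0.113. HoxA and HoxB genes lay mostly below control in the deficient libraries, with 13 of 16 log2 fold changes under 0. All 3 expressed HoxC and HoxD genes lay above 0. The difference between clusters was not tested, since genes are not replicates. For 9 of the 19 genes the groups did not overlap, 2 higher and 7 lower, against 48.1% of all tested genes, 24.1% higher and 24% lower.

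Upstream windows of Hoxd8, Hoxb8 and Hoxa5 are shown here as members from 3 clusters whose groups did not overlap. They were picked after their values were seen. Each is the 250 bases before the RefSeq start (GRCm38.p6), 5′ to 3′ on the gene's strand, with CpG dinucleotides in capitals.
Hoxd8: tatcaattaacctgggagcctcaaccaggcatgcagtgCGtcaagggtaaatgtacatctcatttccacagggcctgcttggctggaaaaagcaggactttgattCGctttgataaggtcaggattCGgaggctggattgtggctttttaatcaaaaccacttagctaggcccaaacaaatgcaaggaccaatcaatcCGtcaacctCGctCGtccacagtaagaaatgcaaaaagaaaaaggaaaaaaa
Hoxb8: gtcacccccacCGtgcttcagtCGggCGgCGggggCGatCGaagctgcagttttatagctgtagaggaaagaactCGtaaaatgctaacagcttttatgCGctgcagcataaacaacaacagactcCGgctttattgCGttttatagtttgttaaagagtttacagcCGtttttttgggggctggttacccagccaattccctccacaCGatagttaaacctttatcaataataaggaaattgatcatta
Hoxa5: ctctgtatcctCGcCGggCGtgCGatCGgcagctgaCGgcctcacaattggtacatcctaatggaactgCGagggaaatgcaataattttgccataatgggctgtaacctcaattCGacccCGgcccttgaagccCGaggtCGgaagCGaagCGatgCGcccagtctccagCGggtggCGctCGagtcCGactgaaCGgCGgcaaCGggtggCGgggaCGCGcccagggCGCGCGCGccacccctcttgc

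The Hoxd8 window, chr2:74704365-74704614 on the plus strand, held 6 CpG. Hoxb8's window, chr11:96281655-96281904 on the plus strand, held 12 CpG, and Hoxa5's, chr6:52204588-52204837 on the minus strand, held 28. The median of all 32851 windows in the RefSeq table was 6 (quartiles 2 and 16), so the 3 windows ran from the middle to above the upper quartile. Windows were in the table for 22 of the 39 genes (24 windows) and for 9 of the 19 expressed genes, too few for a comparison of base composition over the members.

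In the 24 Hox windows, CCGTTA, the core of the motif that Ovo proteins bind, was found 0 times on either strand (TAACGG on the other), and 2.18% of all windows held it. TGATTNAT, a form of the joint Pbx and Hox motif, was in 2 of the 24 against 2.83% of all windows, both strands searched. TATAAA was in 4 of the 24 against 12.4%, both strands searched, and Hoxb8 held it 2 times. The 3 motifs were searched without regard to overlap with each other.

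All 4 clusters were listed with values, but the expressed genes were spread unevenly over them. HoxA (chr6:52162417-52260880 from Hoxa2 to Hoxa13) had 8 of 11 members at a mean of at least 1 FPKM and HoxB (chr11:96194316-96368256) had 8 of 10. HoxC (chr15:102921103-103036852) had 2 of 9 and HoxD (chr2:74668310-74765142) had 1 of 9. Coordinates are from GENCODE M21 on mm10.

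**Figure D1:**
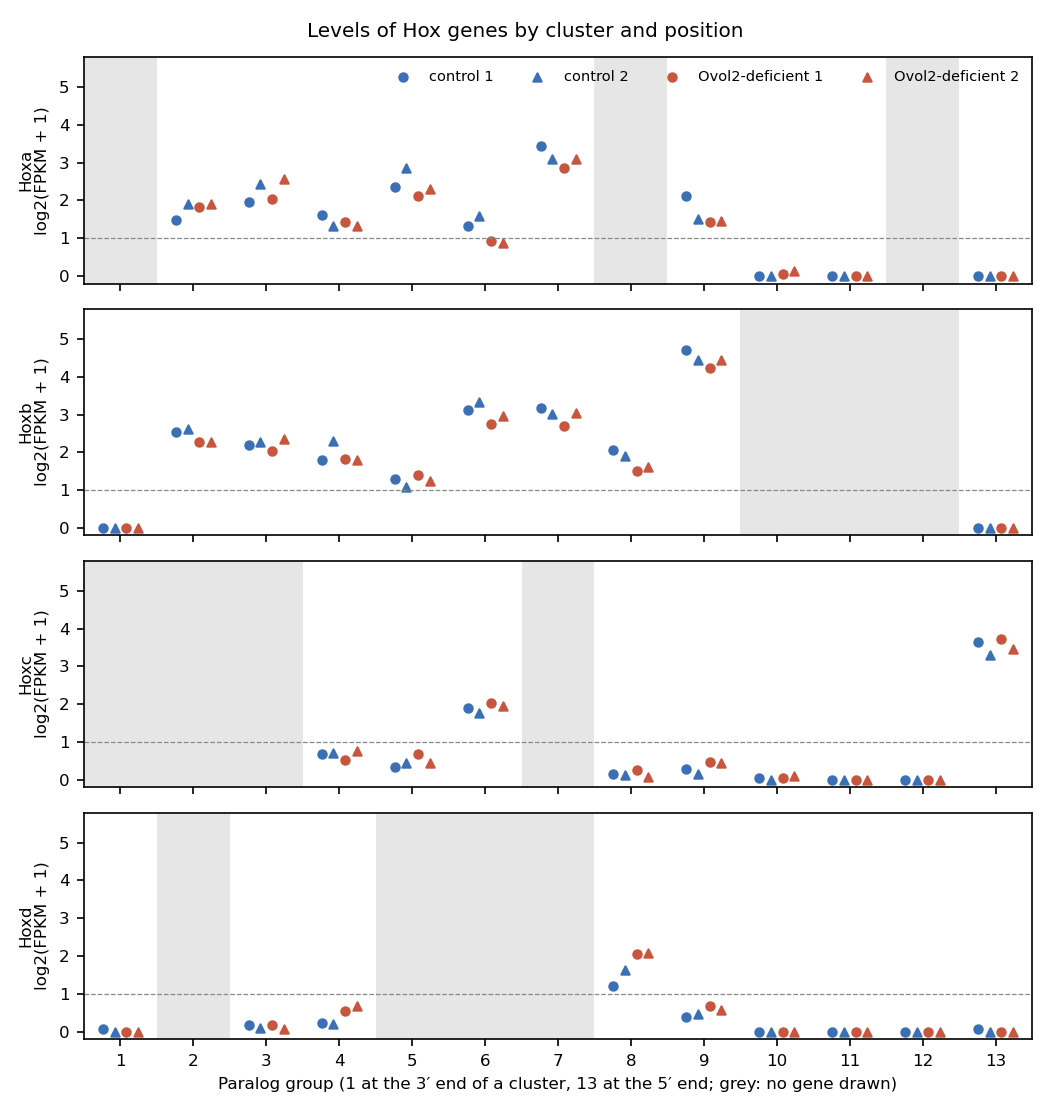
Level of Hox genes as log2(FPKM + 1), a panel per cluster, against paralog group, with a HoxA gene left out; each point is a library and the dashed line is 1 FPKM. HoxA and HoxB are expressed up to group 9, HoxC at groups 6 and 13, and HoxD at group 8.

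HoxA and HoxB formed an unbroken run along the chromosome. From Hoxa2 to Hoxa9 every HoxA gene was expressed, and from Hoxb2 to Hoxb9 every HoxB gene. Hoxa10, a gene of uterus and limb development, closed the run: it was 0 in each control library against 0.0421 and 0.0899 FPKM in deficient cells. Its mean normalized value in the authors' deposited table was 0, so these deficient values have no counterpart there. Hoxa11 and Hoxa13, genes of the outer limb segments, were listed at 0 everywhere, as were Hoxb1, a gene of the hindbrain, and Hoxb13, the most 5′ gene of its cluster.

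FPKM is scaled to length, so genes were added by paralog group, though exons shared with other genes could shift single values. The summed level was highest in group 9, at 29.1 and 23.2 in control cells, against 20.6 and 23.2 in deficient cells. Group 7 followed at 18.0, 14.6, 11.7 and 14.9, and group 6 at 12.0, 13.5, 9.71 and 10.5. Groups 10 to 12 summed to 0.153 FPKM or less in every library. Above that gap, group 13 was at 11.5, 8.95, 12.2 and 9.92, nearly all of it from Hoxc13. Most of group 9 came from Hoxb9, at a mean of 21.2 FPKM, beside 2.15 for Hoxa9, 0.44 for Hoxd9 and 0.27 for Hoxc9. Levels were thus highest at group 9 through Hoxb9, at or near 0 over 3 groups, and present again at the 5′ end of HoxC alone.

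The sum over all 39 genes was 105.0 and 102.6 FPKM in control cells, against 88.9 and 95.9 in deficient cells, with no overlap. HoxB gave 53.9% and 52.4% of it in control cells, against 47.5% and 50.5% in deficient cells. HoxA gave 29.6% and 32.8%, then 28.7% and 30.0%. HoxC gave 14.7% and 12.2%, then 19.0% and 14.9%. HoxD gave the smallest share, 1.91% and 2.60% in control cells, against 4.90% and 4.54% in deficient cells. The HoxB share was lower, and the HoxC and HoxD shares higher, in both deficient libraries, while the HoxA shares overlapped. For HoxC the margin was small. The HoxC sums themselves overlapped, at 15.4 and 12.5 FPKM in control cells, against 16.9 and 14.3 in deficient cells.

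**Figure D2:**
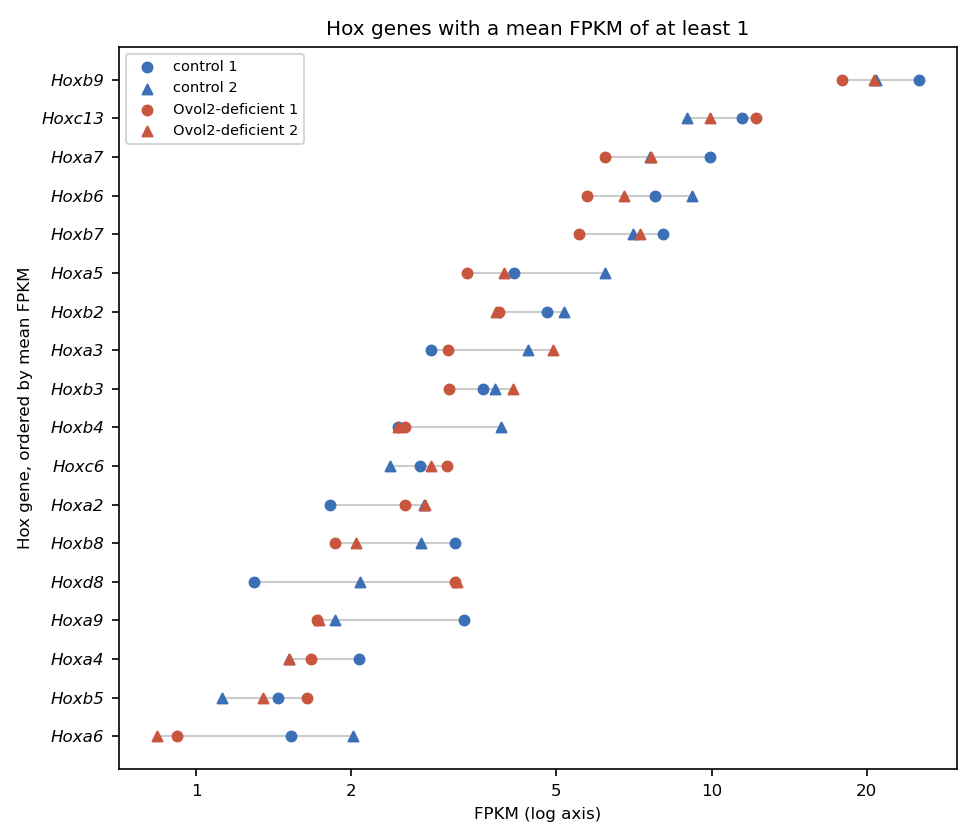
FPKM (log axis) of the expressed Hox genes, with a HoxA gene left out, in each library, ordered by mean; grey lines span the 4 libraries. Hoxb9 is the highest gene in all 4 libraries, and most neighbours in the order overlap.

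Ordered by mean, Hoxb9 led at 21.2 FPKM, 1.99 times the next gene, Hoxc13, and it ranked first in every library. Of the 18 neighbouring pairs in the order, only that pair had ranges over the 4 libraries that did not overlap. Hoxa6 was last at 1.32. The members were low beside other genes, with a median of 3.65 FPKM against 13.5 over all tested genes, and Hoxb9 was the only member above that median.

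In HoxA, the genes of groups 2 to 4 had overlapping groups. Hoxa2, which patterns the second pharyngeal arch, was at 1.82 and 2.77 FPKM in control cells, against 2.55 and 2.78 in deficient cells. The deficient values of Hoxa2 lay inside or next to the control range. Hoxa3, a gene of thymus and parathyroid development, was at 2.86 and 4.41, then 3.08 and 4.92. Hoxa4, of the neck vertebrae, was at 2.07 and 1.51, then 1.67 and 1.51. The log2 fold changes of the 3 genes ran from -0.10 (Hoxa4) to 0.17 (Hoxa2), with adjusted p of 0.688 to 0.868.

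From Hoxa5 on, the deficient values lay mostly below the controls. Hoxa5, a gene of lung and rib development, was at 4.15 and 6.22 FPKM in control cells, against 3.36 and 3.96 in deficient cells, with no overlap (log2 fold change -0.39, SE 0.18, adjusted p 0.330). Hoxa6 was at 1.53 and 2.01 in control cells, against 0.916 and 0.840 in deficient cells. Both deficient values were well below both controls, and the ratio of the means, 0.878 ± 0.0539 to 1.77 ± 0.342 (SD, n = 2 each), was 0.497. On the log2(FPKM + 1) scale this was the lowest fold change of the 19 tested members, at -0.55 (SE 0.16, 95% interval -0.94 to -0.17), with an adjusted p of 0.145. In the authors' deposited table the log2 fold change of Hoxa6 was -0.13, with an unadjusted p of 0.475 and no adjusted p. How that log2 fold change was scaled is not given, so the sizes cannot be compared.

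Hoxa7, a neighbour of Hoxa6, was at 9.93 and 7.59 FPKM in control cells, against 6.21 and 7.62 in deficient cells. The groups overlapped by a narrow margin, since control 2 was just under deficient 2 (log2 fold change -0.30, adjusted p 0.384). Hoxa9, known for its part in blood stem cells and leukaemia, was at 3.31 and 1.86, then 1.71 and 1.73. Its controls were far apart and the deficient libraries close to each other and just below both (log2 fold change -0.37, adjusted p 0.428).

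HoxB repeated the picture, with Hoxb2 added to the lower genes. Hoxb2, which acts in the hindbrain, was at 4.79 and 5.18 FPKM in control cells, against 3.88 and 3.82 in deficient cells, with little spread and no overlap (log2 fold change -0.30, SE 0.12, adjusted p 0.247). Hoxb3, the next gene along the cluster, was at 3.61 and 3.80, then 3.09 and 4.11. Deficient 1 was below and deficient 2 above both controls. Hoxb4, used to expand blood stem cells, was at 2.46 and 3.91, then 2.54 and 2.47, with control 2 alone high. Hoxb5, a gene of enteric neuron development, was at 1.44 and 1.12, then 1.64 and 1.35, and was the only HoxB gene with a log2 fold change above 0 (0.13, adjusted p 0.748).

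The 5′ members of HoxB lay mostly lower in the deficient libraries. Hoxb6 was at 7.77 and 9.16 FPKM in control cells, against 5.72 and 6.77 in deficient cells, with no overlap (log2 fold change -0.39, SE 0.13, adjusted p 0.190). Hoxb7 was at 8.06 and 7.05, then 5.53 and 7.27, and the groups overlapped (log2 fold change -0.22, adjusted p 0.507). Hoxb8, whose loss in mice causes excessive grooming, was at 3.18 and 2.73, then 1.86 and 2.04. Both of its deficient values were below both controls, and the means were 1.95 ± 0.130 and 2.96 ± 0.314 (SD, n = 2 each), a log2 fold change of -0.42 (SE 0.14, 95% interval -0.75 to -0.09, adjusted p 0.184).

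Hoxb9, a gene of the thoracic skeleton and the highest member, was at 25.3 and 20.8 FPKM in control cells, against 17.9 and 20.6 in deficient cells. Control 2 and deficient 2 were nearly level, and the log2 fold change was -0.24 (SE 0.12, adjusted p 0.383).

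Over HoxA and HoxB, groups 5 to 9 had 8 of 9 log2 fold changes below 0 and 6 of 9 genes lower with no overlap, with a median of -0.37. Groups 1 to 4 had 5 of 7 below 0, 1 lower with no overlap, and a median of -0.10. This split was not planned in advance, and the contrast between its sides is a description only. Among all tested genes 50.4% were below 0, 24% were lower with no overlap, and the median was -0.0014. These genes share libraries and lie in the same 2 clusters, so they do not count as separate observations.

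Of the 2 expressed HoxC genes, Hoxc6 was at 2.72 and 2.37 FPKM in control cells, against 3.07 and 2.85 in deficient cells. The groups did not overlap, by a small margin (log2 fold change 0.16, SE 0.13, adjusted p 0.611). Hoxc13, which drives keratin genes of hair and nail, was at 11.5 and 8.95, then 12.2 and 9.92. The spread within each genotype was wider than the gap between them (log2 fold change 0.11, adjusted p 0.779).

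Hoxd8 was the only expressed HoxD gene and had the largest log2 fold change, on the log2(FPKM + 1) scale, of the 19 tested members. It was at 1.30 and 2.08 FPKM in control cells, against 3.17 and 3.20 in deficient cells. Both deficient values were above both controls, with the controls spread and the deficient values close. The means were 3.19 ± 0.0227 and 1.69 ± 0.553 (SD, n = 2 each), a log2 fold change of 0.66 (SE 0.17, 95% interval 0.25 to 1.06), and the adjusted p was 0.113.

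**Figure D3:**
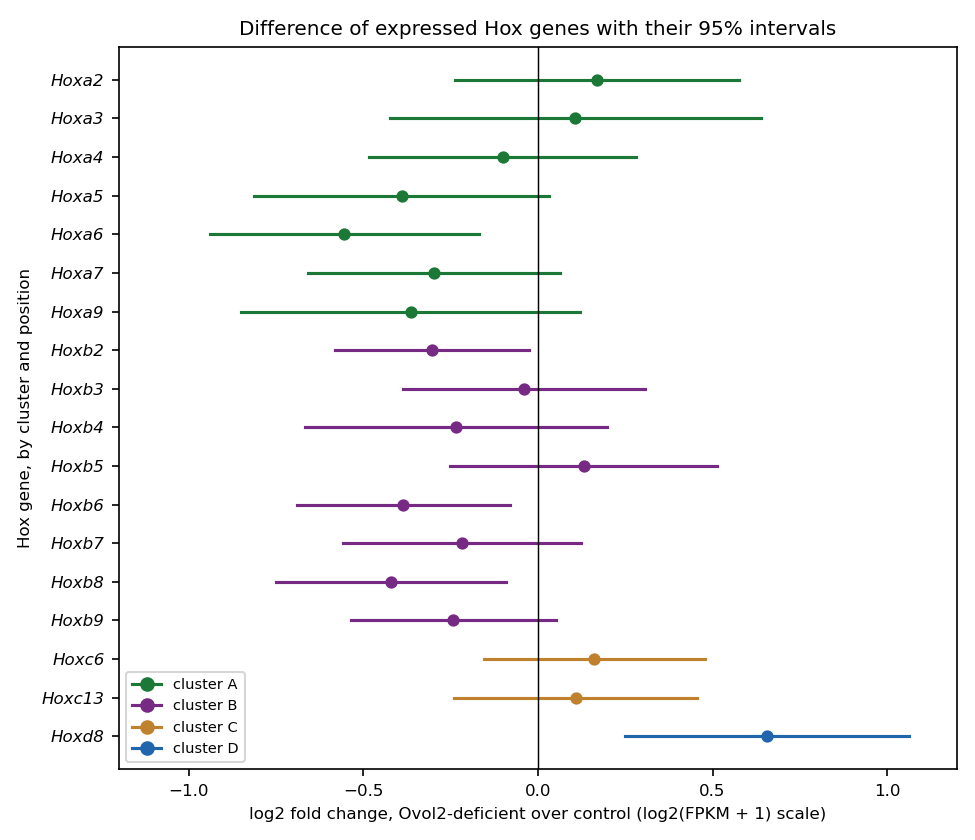
log2 fold change of the expressed Hox genes, with a HoxA gene left out, Ovol2-deficient over control on the log2(FPKM + 1) scale, with its 95% interval from limma, coloured by cluster. Hoxd8 lies farthest above 0 and Hoxa6 farthest below, and most intervals include 0.

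An unadjusted p under 0.05 was reached by 5 of the 19 (Hoxd8 higher; Hoxa6, Hoxb2, Hoxb6 and Hoxb8 lower), against 17.4% of all tested genes. The 95% intervals of 14 of the 19 included 0. On the log2(FPKM + 1) scale those of 18 of the 19 stayed within a 2-fold change either way, and Hoxd8 was the exception. That scale understates changes of low genes: the ratio of mean FPKM was 0.497 for Hoxa6, which is among the 18. The intervals reached 0.28 to 0.53 on the log2 scale to either side of the estimate. The SD within genotypes had a median of 0.190 over the members and 0.102 over all tested genes, so values of these low genes were spread more widely than usual.

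The authors' deposited table, made from the same libraries, gave an adjusted p for 18 of the 39 Hox genes. It called 0 of these 18 at an adjusted p under 0.05, against 4.43% of all genes with an adjusted p there. In the authors' deposited table all 19 expressed members had the same sign as here, and the log2 fold changes ran from -0.32 (Hoxb8) to 0.38 (Hoxd8). Their scale is not given, so the sizes cannot be compared with those here. The lowest adjusted p in the authors' deposited table was 0.393, for Hoxd8.

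The other 20 members had a mean under 1 FPKM in the table, the highest being Hoxc4 at 0.588, and no library of theirs reached 1. Of these, 9 were listed at 0 in all 4 libraries: Hoxa11, Hoxa13, Hoxb1, Hoxb13, Hoxc11, Hoxc12, Hoxd10, Hoxd11 and Hoxd12. A listing at 0 is not proof that no read was seen, since the authors' deposited table has a mean normalized value of 0.471 for Hoxc11.

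Low values were present along HoxC and HoxD, and several were higher in the deficient libraries. Hoxd4, a gene of the neck vertebrae, was at 0.165 and 0.141 FPKM in control cells, against 0.455 and 0.610 in deficient cells. Hoxd9 was at 0.317 and 0.370, then 0.593 and 0.498. Hoxc9 was at 0.217 and 0.115, then 0.380 and 0.366. In these 3 both deficient values were above both controls, and the ratio of mean FPKM was 3.48 for Hoxd4 and 2.25 for Hoxc9, beside 1.89 for Hoxd8. Hoxc5 was also higher with no overlap, by a hair (0.255 and 0.351, then 0.608 and 0.354).

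Hoxc4, at 0.599 and 0.619, then 0.427 and 0.706, overlapped. Hoxc8, Hoxc10, Hoxd1, Hoxd3 and Hoxd13 were at 0.190 FPKM or less and overlapped. Of the 10 HoxC and HoxD members with a value under the minimum, 4 were thus higher with no overlap and 0 lower, beside 22.2% higher and 10.3% lower among all 6255 such genes of the table. Their sum was 1.91 and 1.76 in control cells, against 2.82 and 2.69 in deficient cells. In the authors' deposited table Hoxd4 had an unadjusted p of 0.0289 and no adjusted p, the only 1 of the 39 members under 0.05 unadjusted there. Hoxc5, Hoxc9 and Hoxd9 had unadjusted p of 0.427, 0.278 and 0.529 there, also with no adjusted p. Mean normalized values of these 4 genes were low, from 8.05 (Hoxc9) to 15.3 (Hoxd4). Hoxd4 shares exon bases with Hoxd3 and with a readthrough model, Gm28230, which covers 39.2% of its exon bases, so its reads could be split between rows.

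**Figure D4:**
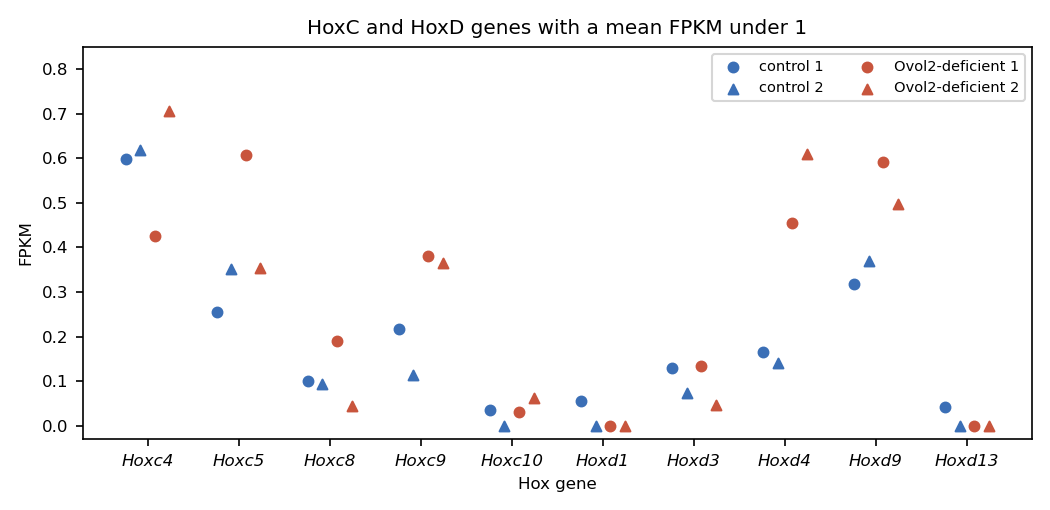
FPKM of the 10 HoxC and HoxD genes with a mean under 1 and a value in at least 1 library, by library. In Hoxc5, Hoxc9, Hoxd4 and Hoxd9 both deficient points lie above both control points.

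Most rows for other genes of the clusters were listed at 0 in the table. Of 16 rows for other genes in the clusters, 11 were listed at 0 everywhere, including the miRNA genes Mir10a, Mir10b, Mir196a-1, Mir196a-2, Mir196b and Mir615, the HoxA transcripts Hottip and Hoxa11os, and Evx2 beside HoxD. Hotair, a HoxC lncRNA, was at 0.0653 FPKM or less. The library kit's yield of short miRNA precursors was not tested, so the zeros of miRNA genes do not show that they are silent. Some annotated antisense RNAs, such as Hoxb3os and Hoxb5os, were not among the 16 rows, so the rest of each cluster was not covered in full.

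Only Mira and Gm53 had a mean of at least 1, and they are named after their values were seen. Mira was at 13.5 and 11.8 FPKM in control cells, against 9.36 and 9.29 in deficient cells, with no overlap (log2 fold change -0.40, SE 0.11, adjusted p 0.120). All 798 bases of the RefSeq entry for Mira (chr6:52214491-52215288) lie in GENCODE exons of Hoxa7 and 0 in the RefSeq span of Hoxa7, so Mira and a long 3′ end of Hoxa7 cannot be told apart. Gm53, a lncRNA on the 5′ side of Hoxb9, was at 9.90 and 8.64, then 7.20 and 9.48, and overlapped (log2 fold change -0.14, adjusted p 0.679).

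Strand is not stated for these libraries, so reads of a Hox gene and of its antisense RNA cannot be told apart. Exons of 7 of the 19 expressed members overlap a gene on the other strand, and those of 3 overlap another gene on the same strand. The widest overlap is that of Hoxb3os, which covers 52.9% of the exon bases of Hoxb3 and 27.3% of those of Hoxb2. Hoxaas3 covers 20.4% of those of Hoxa7, and its own row, under an older symbol, was at 0.241 and 0.361 FPKM in control cells, against 0.106 and 0.113 in deficient cells.

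Genes that act with or on the clusters were counted in the same test, as were other positional homeobox and T-box genes. In each of the 5 lists 0 genes passed it. An unadjusted limma p under 0.05 was reached by 1 higher and 1 lower TALE gene, 3 lower Polycomb genes, 1 lower Trithorax or demethylase gene, 1 higher retinoid gene and 6 higher positional genes, where 9.49% of all tested genes were higher and 7.94% lower at that level. Groups did not overlap for 24.1% of all tested genes with higher and 24% with lower deficient values, the shares to set beside each list's count. Of the 10 expressed TALE cofactors of 11, 5 were higher and 3 lower with no overlap, with a median log2 fold change of -0.01. Tgif1, a repressor of the class, was at 59.8 and 55.2 FPKM in control cells, against 47.1 and 50.3 in deficient cells (adjusted p 0.260). Both deficient values of Tgif1 were below both controls.

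Of 25 expressed Polycomb genes of 26, 2 were higher and 11 lower with no overlap (24.1% and 24% of all tested genes), with a median of -0.06. Rbbp7, a histone-binding subunit, overlapped at 113.3 and 106.7, then 110.2 and 100.5 FPKM (adjusted p 0.803). Phc2, a subunit of the repressive complex PRC1, was at 45.4 and 52.8, then 42.1 and 40.6 (adjusted p 0.295), lower with no overlap. Of the 10 Trithorax genes and demethylases, 1 was higher and 1 lower with no overlap, with a median of -0.06. Its most abundant members, Dpy30 (59.5 and 52.2, then 54.4 and 48.8 FPKM) and Psip1 (39.8 and 35.4, then 36.8 and 36.3), overlapped, with adjusted p of 0.666 and 0.898.

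Of the 18 retinoid and Cdx genes 8 were expressed, with 4 higher and 1 lower with no overlap (24.1% and 24% of all tested genes) and a median of 0.13. Aldh1a1, an enzyme that makes retinoic acid, was at 83.9 and 83.1 FPKM in control cells, against 117.8 and 170.5 in deficient cells, both higher (log2 fold change 0.76, adjusted p 0.0731). The retinoic acid receptor gene Rarg was at 45.8 and 41.7, then 39.9 and 39.5, lower with no overlap (adjusted p 0.518). With the replicate number as a block, Aldh1a1 passed at a limma adjusted p of 0.0280. Over all 11350 tested genes, 518 passed with that block, against 153 without it.

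Of the 28 other positional homeobox and T-box genes 11 were expressed and 0 passed the test. Of the 11, 7 were higher and 1 lower with no overlap, beside 24.1% higher and 24% lower among all tested genes, with a median of 0.48. Prrx1, a homeobox gene of limb and skin mesenchyme, was at 40.1 and 48.1 FPKM in control cells, against 57.1 and 69.9 in deficient cells (log2 fold change 0.52, adjusted p 0.108). Barx2, a homeobox gene of epithelia, was at 20.6 and 12.2, then 15.1 and 11.5, and overlapped (adjusted p 0.651). With the replicate block Prrx1 passed at a limma adjusted p of 0.0255, and so did En1, which patterns ventral limb ectoderm, at 0.0459. That block raised the calls over all 11350 tested genes from 153 to 518. En1 was at 2.84 and 3.68, then 5.11 and 5.82 FPKM, higher in both deficient libraries.

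**Figure D5:**
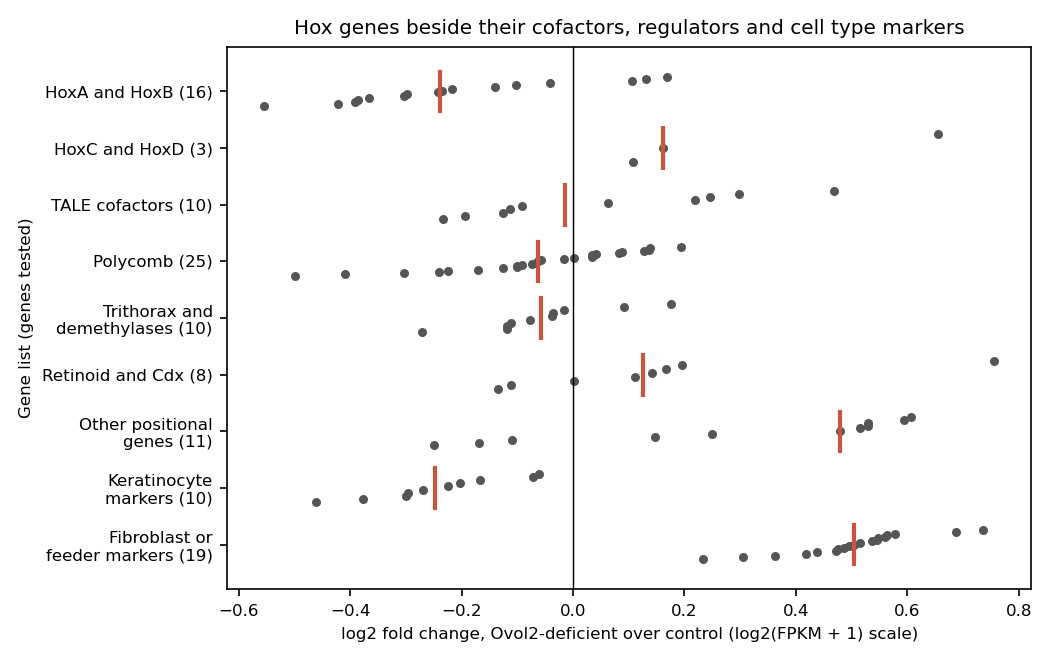
log2 fold change of every tested gene in each list (points; red bars are medians), Ovol2-deficient over control on the log2(FPKM + 1) scale. HoxA and HoxB lie mostly below 0, with a median of -0.24, and the fibroblast or feeder markers lie above it, with a median of 0.50.

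Genes listed as fibroblast or feeder markers differed between the genotypes beside these values. All 19 expressed fibroblast or feeder markers of 22 were higher with no overlap, 3 of them past the test (Vim, Loxl1 and Pcolce), with a median log2 fold change of 0.50. Among all tested genes 24.1% were higher and 24% lower with no overlap, and 0.837% passed the test as higher. The summed level of the fibroblast or feeder markers was 862 and 825 FPKM in control cells, against 1154 and 1213 in deficient cells, and 0 of the 22 were listed at 0. Prrx1 is on that list as well. Dcn, Lum and Postn of that list had a mean under 1 FPKM. Dcn overlapped, and Lum and Postn were higher with no overlap. Of the 10 keratinocyte markers 0 passed (4 had an unadjusted limma p under 0.05, all lower), 6 were lower with no overlap, and the median was -0.25. The part of either shift in the HoxA, HoxB, Hoxd8, Hoxc6 or Hoxd4 values was not tested. Whether the RNA of the fibroblast or feeder markers came from other cells or from keratinocytes was not tested.

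The 6 expressed melanocyte markers of 9 were all higher with no overlap and 0 passed. Among all tested genes 24.1% were higher and 24% lower with no overlap, and 1.35% passed. The 9 melanocyte markers summed to 62.9 and 68.6 FPKM in control cells, against 91.8 and 85.2 in deficient cells. Immune markers summed to 4.27 FPKM or less and endothelial markers to 4.31 or less in every library, with 2 of 6 and 2 of 4 expressed and 0 passing. Within each of these lists 1 gene was lower with no overlap and 0 were higher.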

How the data were processed

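RNA was sequenced from 2 control and 2 Ovol2-deficient keratinocyte cultures, by amplified full-length cDNA and Nextera tagmentation per the labels. The submitters' processing notes name mm10, HTSeq and TopHat. The annotation and the FPKM tool are not given in the sources used here. FPKM per library were deposited. The authors' deposited comparison holds, per the file headers, p-values, a test score, a log2 fold change, its error and a mean normalized signal. The deficient columns carry another name than the labels, so their numbers are those of the table.

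Rows of 1 symbol were summed and 27 date-like rows left out. Genes whose mean FPKM reached 1 were tested on log2(FPKM + 1), a pseudocount of 1 that understates changes of low genes, with limma 3.58.1 in R 4.3.3 (genotype only, variance trend, Benjamini-Hochberg over 11350 genes, threshold 0.05). The fit was run on simulated data whose planted changes were larger than that of any expressed Hox gene. That run therefore does not show whether changes as small as theirs would be called. With 2 libraries a group no permutation test can reach a small p. Between any pair of libraries 5 to 13 values were identical, so no library is a copy.

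Members and lists (TALE, Polycomb, Trithorax and demethylases, retinoid and Cdx, other positional genes, 5 cell type marker lists) were chosen with earlier results of these data known. Named are all expressed members, those that close an expressed run, and of each list the called genes and the 2 highest. Genes that the rule names but that are not printed are not reported here. Low members and En1 were also named for their values. Alternatives were another pseudocount or minimum, no minimum, quantile normalization, TPM, no variance trend, the replicate block and leaving out each library.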

Additional observations from a re-analysis of the deposited data

How the results depend on the processing

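No Hox gene was called under any alternative; the lowest adjusted p was 0.0543, for Hoxd8 without control 2. Without a minimum FPKM, 30 Hox genes were tested, the median log2 fold change was -0.03 and 14 did not overlap (42.6% of all genes tested so). Leaving out a library, with the lone library of a group assumed to vary like the other group, gave 13 to 15 genes without overlap (72.1% to 76.5% of all tested genes) and medians of -0.22 to -0.12. It turned the sign of several genes, among them Hoxa2, Hoxa3, Hoxa4, Hoxb3, Hoxb4 and Hoxc13; 12 expressed genes kept theirs under all 11 alternatives. Quantile normalization and TPM left 13 of 19 below 0, with medians of -0.23 and -0.21.

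Equal replicate numbers are not said to share a litter or day, and with 2 pairs the deviations correlated at 0.220. With the replicate number as a block 0 Hox genes and 3 genes of the cofactor, regulator and positional lists passed (Aldh1a1, En1 and Prrx1). Calls over all genes ran from 3 without a minimum to 518 with the block (153 as reported), among them 5 with quantile normalization, 6 without the variance trend, 45 with TPM, 68 at a minimum of 0.5, and 10 to 397 with a library left out. The cause was not tested.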
